A study of Mus musculus with 6 samples.

Results

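Voltage-gated calcium channels admit calcium into the cell when the membrane depolarizes, and here 10 of their subunit genes were followed across the cells of the mouse cerebellum. The genes were given by name and are *Cacna1a*, *Cacna1c*, *Cacna1d*, *Cacna1e*, *Cacna1g*, *Cacna1h*, *Cacna2d1*, *Cacna2d2*, *Cacna2d3* and *Cacnb4*, out of 32286 genes counted. All 10 were present in every count table. Single nuclei RNA sequencing was performed on whole cerebella of 3 *Pcp2-ATXN1[82Q]* mice (SCA1 mice) and 3 wild-type (WT) littermates, all 12 weeks old and on the C57BL/6 background, with 1 library per mouse. In SCA1 mice the *Pcp2* promoter, which is specific to Purkinje cells (PCs), drives a human *ATXN1* transgene whose CAG repeat is expanded and can shrink between generations. No other allele or treatment is given for either genotype.

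Each channel is built around a pore-forming alpha1 subunit, which sets its type. *Cacna1a* encodes the pore of P/Q-type channels, *Cacna1c* and *Cacna1d* those of L-type channels, *Cacna1e* that of R-type channels, and *Cacna1g* and *Cacna1h* those of T-type channels, which open at low voltage. Alpha2delta subunits (*Cacna2d1*, *Cacna2d2* and *Cacna2d3*) and beta subunits (*Cacnb4*) are auxiliary proteins that help high-voltage-activated channels reach the membrane. P/Q-type channels carry most of the calcium current of PCs, and inherited defects of *Cacna1a*, *Cacna2d2* or *Cacnb4* cause ataxia in mice.

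The 6 libraries held 45473 nuclei and 18916647 to 98366627 unique molecular identifiers (UMIs, 1 per captured transcript). Nuclei were grouped by the SingleR label that was deposited for each nucleus. Of 24 labels, 13 had at least 10 nuclei in every mouse and were compared, and 431 nuclei with other labels were kept apart. PCs had 292 nuclei, with 29 to 76 per mouse and 829529 to 3240844 UMIs per mouse, against 37532 granule neuron nuclei. The median nucleus held 36466.5 UMIs in PCs and 5923 in granule neurons. Human *ATXN1* had 46 UMIs in SCA1 PCs and 0 in WT PCs. The label that names endothelial tip cells had mixed markers, so its cells are called Dcn-Nnat nuclei. Of 3 endothelial markers *Flt1* was at 101 CPM while *Cldn5* and *Pecam1* were at 1.32 and 2.2 CPM pooled over mice, and the 4 fibroblast markers summed to 589 to 1398 CPM. Interneuron labels are called by their label genes, since only 0%, 14.4% and 47.9% of the Pvalb-Rab3b, Pvalb-Chrm2 and Lgi2 nuclei lay in a Seurat cluster where that label was the most frequent. Levels are counts per 1000000 UMIs (CPM) of all nuclei of a label in a mouse, and are not compared between genes.

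The alpha2delta genes *Cacna2d1*, *Cacna2d2* and *Cacna2d3* are shown with their promoters first, because these related subunits were each highest in a different cell type and have a single promoter entry each. The 300 bases run from 250 before to 50 after the transcription start (RefSeq, build GRCm38.p6), read 5′ to 3′ on the gene's strand. Capitals mark CG dinucleotides. They lie at chr5:15934441-15934740 (+ strand), chr9:107399630-107399929 (+ strand) and chr14:29721815-29722114 (- strand).
Cacna2d1: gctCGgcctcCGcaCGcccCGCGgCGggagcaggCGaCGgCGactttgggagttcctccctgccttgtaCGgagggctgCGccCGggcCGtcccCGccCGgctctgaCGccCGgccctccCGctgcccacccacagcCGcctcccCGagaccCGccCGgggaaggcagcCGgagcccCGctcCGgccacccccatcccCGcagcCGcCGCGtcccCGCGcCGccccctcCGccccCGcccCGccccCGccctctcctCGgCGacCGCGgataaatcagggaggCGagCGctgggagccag
Cacna2d2: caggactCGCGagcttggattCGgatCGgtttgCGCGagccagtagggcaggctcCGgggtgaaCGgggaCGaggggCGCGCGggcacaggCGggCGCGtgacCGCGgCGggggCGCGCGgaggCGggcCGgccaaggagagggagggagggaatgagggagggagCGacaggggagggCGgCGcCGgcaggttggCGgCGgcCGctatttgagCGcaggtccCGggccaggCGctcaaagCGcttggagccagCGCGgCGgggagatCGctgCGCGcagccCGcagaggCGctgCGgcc
Cacna2d3: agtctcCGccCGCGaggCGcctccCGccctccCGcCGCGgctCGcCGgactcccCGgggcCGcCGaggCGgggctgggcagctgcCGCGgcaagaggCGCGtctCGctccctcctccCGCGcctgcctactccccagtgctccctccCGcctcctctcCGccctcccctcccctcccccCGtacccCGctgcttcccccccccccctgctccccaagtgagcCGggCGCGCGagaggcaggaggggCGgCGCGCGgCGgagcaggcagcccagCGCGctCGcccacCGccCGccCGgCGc
The sequences of *Cacna2d1*, *Cacna2d2* and *Cacna2d3* held 42, 43 and 41 CG dinucleotides, where the median of all 32851 mouse promoters was 7. Of all promoters, 97%, 97.4% and 96.5% held fewer. CG content was close among these promoters, whose genes differed in their highest cell type. Promoters were found for 7 of the 10 subunit genes, 12 promoters in all. None was found for *Cacna1a*, *Cacna1g* and *Cacna1h*, so the motifs below were not searched in these genes. The motif TGAATGA, bound by Capicua, a repressor that forms a complex with ATXN1, was searched on both strands. It was in 0 of these 12 promoters and in 3.75% of all promoters. The E-box CANNTG was in 6 of the 12 and in 72.3% of all promoters.

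The P/Q-type pore gene *Cacna1a* (chr8:84388440-84640246 of GRCm38) was highest in PCs. Its level there was 3263 ± 381 CPM (SD, n = 6 mice), with the lowest mouse at 2832, the median at 3188 and the highest at 3871. Granule neurons followed at 1864 ± 164 CPM, and every mouse had more in PCs than in granule neurons. The 7 other neuron labels ranged from 803 to 1115 CPM. Neighbours in the order of these 7 labels went the same way in at most 5 of 6 mice, with adjusted p from 0.163 to 0.962 (exact permutation test). Velate astrocytes (VA) had 441 ± 67.6 CPM, Bergmann glia (BG) 418 ± 65.7 CPM, oligodendrocytes (OL) 270 ± 101 CPM and Dcn-Nnat nuclei 147 ± 52.2 CPM. The granule neuron markers described with the glia were at 5.44% to 26.9% of their granule neuron level in Dcn-Nnat nuclei. *Cacna1a* was there at 8.1% of its own, and at 22.6% in BG and 23.7% in VA. Whether its level in labels outside neurons is expression was not tested.

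The genes of L-type and R-type pores were low in PCs. *Cacna1c* was highest in granule neurons (983 ± 245 CPM), where the mice ranged from 705 to 1283, and lowest of all 13 labels in PCs (65.8 ± 28.3 CPM). *Cacna1e*, the R-type gene, had the same ends, with 733 ± 203 CPM in granule neurons and 24.2 ± 16 CPM in PCs. *Cacna1d* was highest in 3 of the 5 interneuron labels. It reached 1445 ± 280 CPM in Pvalb-Rab3b and 1393 ± 253 CPM in Pvalb-Nefh interneurons, and 1103 ± 196 CPM in Pvalb-Cadm1 interneurons. Lgi2 interneurons held 742 ± 151 CPM, while Pvalb-Chrm2 interneurons (393 ± 68 CPM) were below both Slc17a6 labels (543 and 547 CPM) and near granule neurons (365 ± 78.6 CPM), and PCs had 126 ± 33.5 CPM. Pvalb-Rab3b and Pvalb-Nefh interneurons differed by 0.05 ± 0.02 (SD) on the log2 scale, in the same direction in 6 of 6 mice.

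The T-type pair was split between cell types. *Cacna1g* was highest in PCs at 402 ± 101 CPM, with mice from 289 to 525, followed by Slc17a6-Sln neurons at 129 ± 31.7 CPM and Slc17a6-Nrgn neurons at 57.8 ± 10.8 CPM. Every other label had 49 CPM or less. *Cacna1h* was nearly undetected, with 1 UMI over all 292 PC nuclei. Its highest label was Slc17a6-Nrgn neurons at 15.9 ± 4.76 CPM, from 299 UMIs, and it could be tested between genotypes in only 3 labels.

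Among the auxiliary subunits, *Cacna2d2* was highest in PCs at 598 ± 114 CPM, with mice from 496 to 743. Pvalb-Cadm1 interneurons followed at 302 ± 24.2 CPM and Pvalb-Chrm2 interneurons at 257 ± 29.7 CPM, both below PCs in 6 of 6 mice. *Cacna2d1* was highest in Slc17a6-Sln neurons at 1348 ± 247 CPM, with 745 ± 84.9 CPM in Slc17a6-Nrgn and 612 ± 105 CPM in granule neurons, and PCs were its lowest label at 26.9 ± 17.2 CPM. *Cacna2d3* marked the inhibitory interneurons. It had 3445 ± 705 CPM in Pvalb-Cadm1 and 1251 to 1955 CPM in the other 4 interneuron labels, and the next label, Slc17a6-Nrgn neurons, had 316 ± 127 CPM. PCs held 29.7 ± 19.8 CPM of it. *Cacnb4* was nearly level between PCs (1245 ± 150 CPM) and granule neurons (1129 ± 177 CPM), a difference of 0.15 ± 0.08 on the log2 scale that had the same sign in 6 of 6 mice, and OL held 506 ± 151 CPM.

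**Figure D1:**
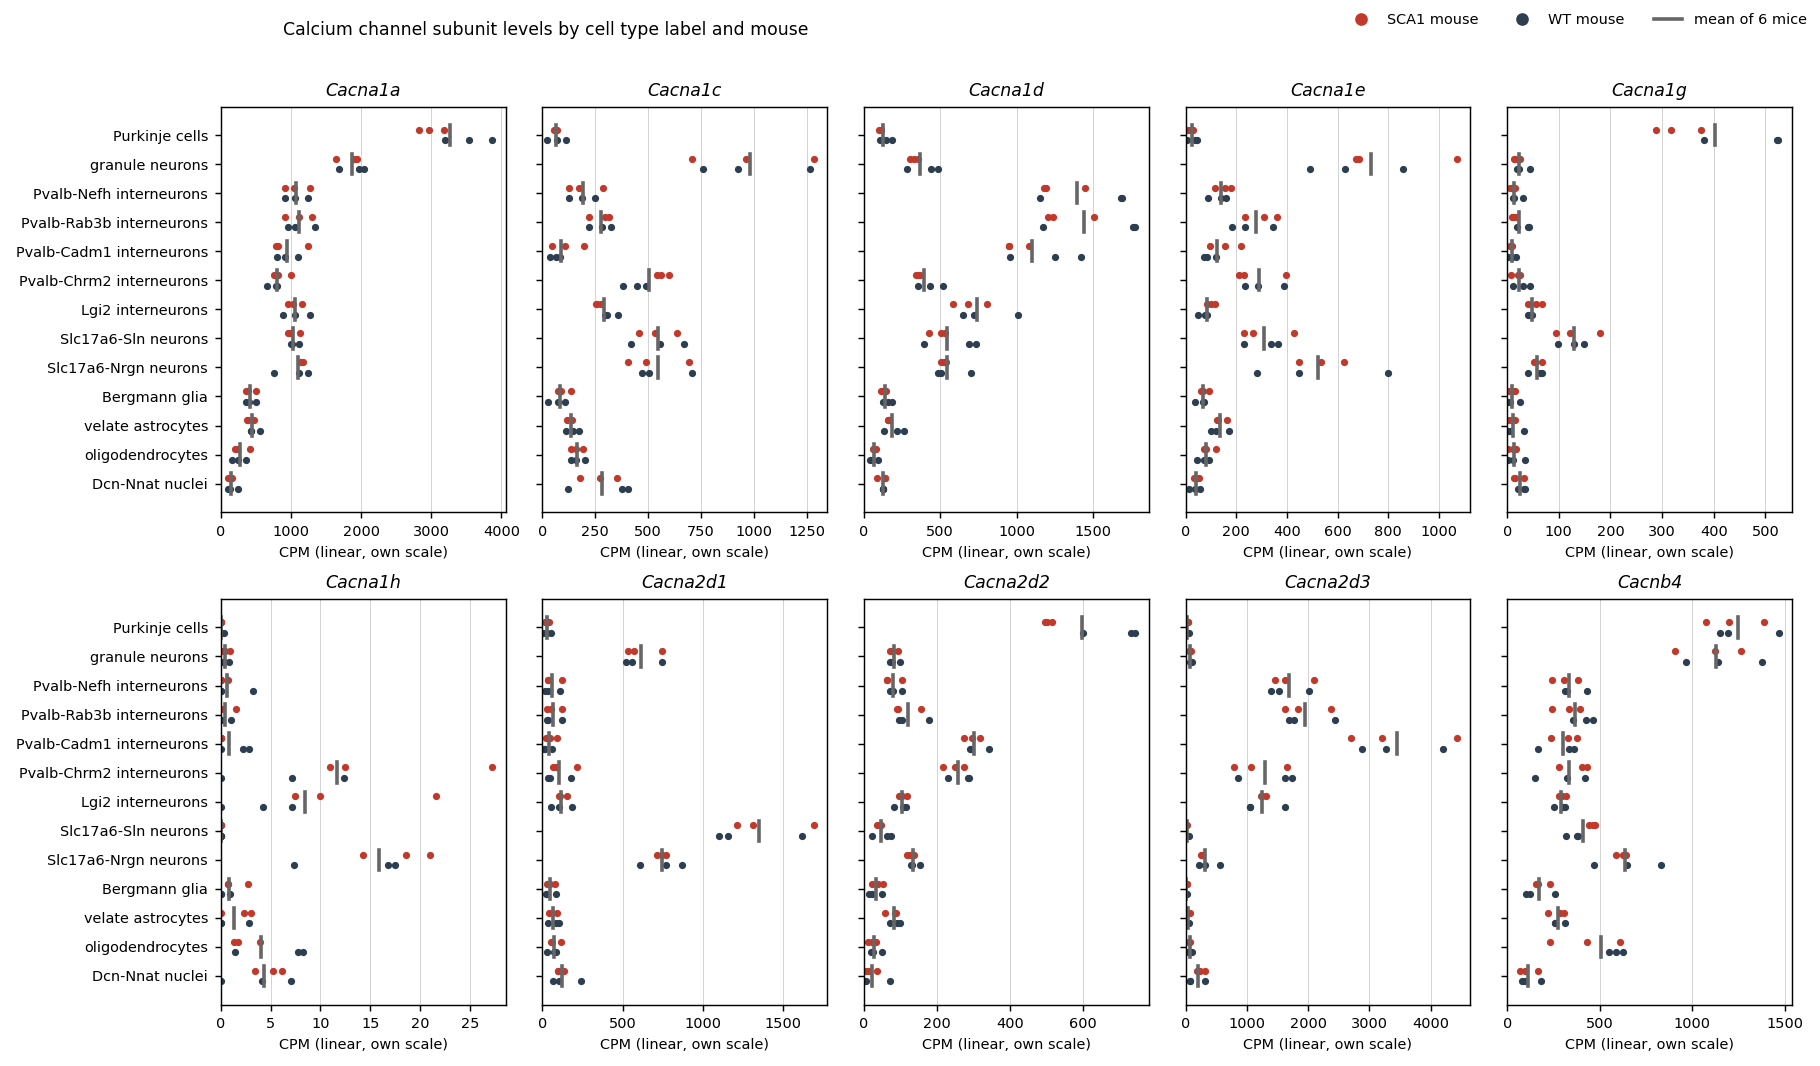
Level of each of the 10 subunit genes (x axis, CPM on a linear scale of its own for each gene) in the 13 cell type labels (rows). Points are mice, red for SCA1 and dark for WT, and bars are means of 6 mice. Cacna1a, Cacna1g, Cacna2d2 and Cacnb4 were highest in Purkinje cells, and Cacna2d3 in the interneuron labels.

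Neighbours in each gene's order were compared by a two-sided exact permutation test within mouse (120 pairs over the 10 genes). In 38 pairs all 6 mice went the same way. The exact test then gave p = 0.0312, the smallest this design allows, and 0.0985 after adjustment over the 120 pairs, and no pair passed. For 9 of the 10 genes the highest label was above the next in 6 of 6 mice, the exception being *Cacna1h* with 5 of 6. Levels over the 13 labels were also correlated between members, as means of the WT mice on a log2 scale. Most alike were *Cacna1c* and *Cacna2d1* (r = 0.85), *Cacna1d* and *Cacna2d3* (r = 0.76), and *Cacna1a* and *Cacna2d2* as well as *Cacna1c* and *Cacna1e* (both r = 0.75). These labels come from the same WT libraries and the values are descriptions.

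Among 7260 genes, those most like *Cacna1a* over the 13 labels were *Gm16183* (r = 0.951), *Cnnm1* (0.947) and *Atp2b2* (0.946). *Gm16183* is an antisense gene annotated inside *Cacna1a*, at chr8:84611202-84617184 on the opposite strand, and whether its reads can be told from those of *Cacna1a* is uncertain. *Atp2b2* encodes a calcium pump of the plasma membrane. *Stac* (0.872), *Muc3a* (0.866) and *Ptpn1* (0.866) were most like *Cacna1g*, and *Dipk1b* (0.943), *Tecr* (0.928) and *Lrch1* (0.902) most like *Cacna2d2*.

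PCs and granule neurons of the same mice were next compared in a single edgeR fit with mouse as a term. All 9 subunit genes that could be tested passed (adjusted p of 0.05 or less). In PCs, 4 were higher, against 25.2% of all 16707 genes tested, and 5 were lower, against 35.5% of all genes. The log2 ratio of *Cacna1g* was 4.52 ± 0.246 (SE, adjusted p = 2.46e-08), that of *Cacna2d2* 3.19 ± 0.176 (adjusted p = 2.66e-08), that of *Cacna1a* 1.13 ± 0.129 (adjusted p = 1.04e-05) and that of *Cacnb4* 0.48 ± 0.111 (adjusted p = 0.00283). *Cacna1e* differed by -4.63 ± 0.384, *Cacna2d1* by -4.24 ± 0.319 and *Cacna1c* by -3.61 ± 0.218, while *Cacna1d* and *Cacna2d3* differed by -1.21 ± 0.116 and -1.14 ± 0.27. These values are scaled by TMM, which is meant to correct for composition and takes most genes as unchanged. Since 25.2% of genes were called higher and 35.5% lower, that need not hold between these cell types. With library size alone, the median of all genes moved from -0.20 to -0.51 and the share of calls that were higher in PCs from 41.5% to 28.2%. *Cacnb4* then was 0.15 higher in PCs and no longer passed (adjusted p = 0.27), while the other 8 genes kept their direction and their call.

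Of 16 further subunit genes 12 were tested, with 3 higher and 6 lower in PCs, where 25.2% of all genes were higher and 35.5% lower. Their median log2 ratio was -0.92, beside -0.20 over all genes. *Cacnb2*, another beta subunit, was higher by 5.08 ± 0.152 in PCs. *Cacng2* and *Cacng7*, members of a family named for channels that also serves AMPA receptors, were higher by 1.23 ± 0.119 and 0.94 ± 0.0906. *Cacna1i*, the remaining T-type pore, was lower by 3.53 on the log2 scale (-3.53 ± 0.246), and *Cacna1b*, the N-type pore, differed by -3.19 ± 0.286. *Cacnb3* (-2.76), *Cacng8* (-2.53), *Cacng3* (-1.45) and *Cacng4* (-0.96) were the others that were lower. Of 16 partner genes 13 were tested, with 4 higher and 7 lower in PCs, and their median was -0.73. The higher ones were *Stac* (8.61 ± 0.415), an adaptor of L-type channels, *Kcnma1* (6.78 ± 0.377) and *Kcnn2* (0.66 ± 0.114), which encode calcium-activated potassium channels, and *Rimbp2* (4.29 ± 0.299), a scaffold of presynaptic channels. The active zone genes *Rims1* (-3.76) and *Rims2* (-1.83) were lower, as were *Cabp1* (-2.06), *Rem2* (-1.82), *Calm3* (-1.07) and *Fgf14* (-0.99).

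Shares of nuclei with at least 1 UMI of a gene were also read after each nucleus was thinned to 3000 UMIs, since PC nuclei were deeper. *Cacna1g* was found in 88.6 ± 9.72% of PCs and 12.3 ± 8.45% of granule neurons, and in 59.8 ± 12% and 6.41 ± 3.28% after thinning. In VA the thinned share was 3.46 ± 3.35%, within the SD of granule neurons. Paired by mouse, however, the VA level in CPM was below the granule neuron level in every mouse, at 9.66% to 74.1% of it. Whether the granule neuron share of *Cacna1g* is expression was not tested. *Cacna2d2* was in 76.2 ± 11.5% of PCs and 20.9 ± 3.32% of granule neurons after thinning (88.9% and 35.1% before). Its granule neuron share was not above that of VA (20.6 ± 4.75% thinned), while BG and OL had 8.73 ± 4.5% and 6.94 ± 4.06%. Thinning left out 2 SCA1 and 10 WT nuclei of PCs, and 1180 and 4541 of granule neurons. In PCs, *Cacna1e* (4.65 ± 4.09%), *Cacna2d1* (6.41 ± 3.36%) and *Cacna2d3* (6.83 ± 4.01%) were found in shares below that of *Gabra6*, a granule neuron gene that PCs should lack (8.93 ± 11.1%), after 18.5%, 26.2%, 29.7% and 42.2% without thinning. The PC shares of *Cacna1e* and *Cacna2d1* are not read as expression, although *Gabra6* itself ranged from 0% to 27.5% over mice. For *Cacna2d3* this gene is no measure, since its thinned granule neuron share was 85.7 ± 3.31% and that of *Cacna2d3* 16.9 ± 2.46%. Whether the PC share of *Cacna2d3* is expression was not tested.

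**Figure D2:**
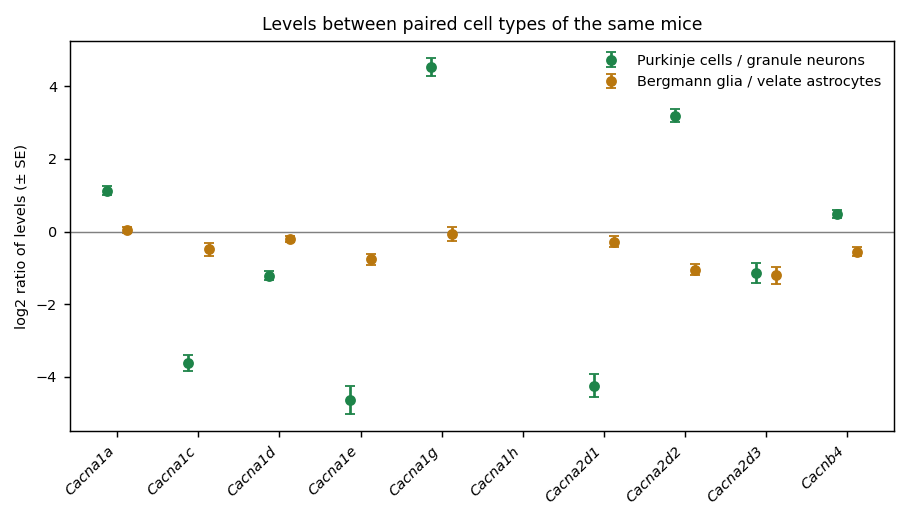
Difference in level between cell types of the same mice (y axis, log2 ratio with SE from edgeR, 6 mice) for each subunit gene (x axis). Green points compare Purkinje cells with granule neurons and brown points Bergmann glia with velate astrocytes. Cacna1g and Cacna2d2 lie far above 0 and Cacna1c, Cacna1e and Cacna2d1 far below 0 in the first comparison, and Cacna1h was not tested.

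Between the astroglial types, BG and VA, 4 of 9 subunit genes differed, each lower in BG, where 12.4% of all 12225 genes were called lower. *Cacna2d3* differed by -1.20 ± 0.231 (adjusted p = 0.000765), *Cacna2d2* by -1.05 ± 0.153 (adjusted p = 4.75e-05), *Cacna1e* by -0.76 ± 0.148 (adjusted p = 0.000845) and *Cacnb4* by -0.55 ± 0.118 (adjusted p = 0.00179). None of the 9 was called higher in BG, against 11.5% of all genes. *Cacna1a* differed by 0.04 ± 0.0819 (adjusted p = 0.77). Of the further subunit genes, 6 of 11 tested were higher in BG, led by *Cacng5* (2.91 ± 0.172), *Cacna2d4* (1.98 ± 0.31) and *Cacng7* (1.57 ± 0.139), with *Cacnb1* (0.80), *Cacng4* (0.58) and *Cacng8* (0.54), and *Cacnb2* (-0.40) was lower. Of the 11 partner genes tested, *Rimbp2* (-1.64), *Kcnma1* (-1.51) and *Fgf14* (-0.73) were lower in BG and 0 were higher. With library size alone, the median of all genes moved from -0.02 to -0.11, the share of calls higher in BG from 48.1% to 34.9%, and *Cacna1c* (-0.60, adjusted p = 0.031) and *Cacna1d* (-0.32, adjusted p = 0.0168) were called as well. The 5 markers of molecular layer interneurons (*Gad1*, *Lypd6*, *Nxph1*, *Ptprk* and *Sorcs3*) summed to 30.3 to 167 CPM in BG and 192 to 275 CPM in VA, without overlap, and each of the 5 granule markers had a lower mean in BG than in VA. The interneuron sum was 50.2 to 213 CPM in granule neurons, and a sum does not show which of the 5 genes carries it. The part of RNA from other cells in the differences between BG and VA was not tested.

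Granule neuron markers were found in glia too, and their values stand beside those of the subunit genes. In BG the 5 markers *Gabra6*, *Rbfox3*, *Neurod1*, *Slc17a7* and *Cadps2* lay at 9.63% to 31.2% of their granule neuron level (means over 6 mice), none of them at 0. *Cacna1c*, *Cacna1e*, *Cacna2d1* and *Cacnb4* were in BG at 9.32%, 9.73%, 8.46% and 16% of theirs, and *Cacna1a* was at 22.6%. *Cacna1d* was at 38.9% in BG (33% to 44.5% over mice) and 49.2% in VA (44.5% to 54.2%), above the mean of each marker, but *Neurod1* ranged over mice from 17.3% to 50.8% in BG and from 19% to 69% in VA. *Cacna2d2* (39.1%) in BG was also above each marker's mean, as was *Cacna1g* (39.4%). Whether the share of *Cacna1g* in granule neurons is itself expression was not tested. In VA *Cacna2d2* was at 101% of its granule neuron level, where the markers were at 12.1% to 38.5%. In OL *Cacna2d3* was at 81.7% and *Cacnb4* at 44.5%, where the markers were at 11.9% to 41%. Markers of the cells where *Cacna2d2*, *Cacna1g* and *Cacna2d3* are highest were present as well. The 6 Purkinje markers *Pcp2*, *Calb1*, *Car8*, *Ppp1r17*, *Itpr1* and *Rgs8* summed to 210 to 1880 CPM in BG, 541 to 2289 CPM in VA and 267 to 2141 CPM in OL. The 5 interneuron markers summed to 962 to 1977 CPM in OL. Their sum was far lower in BG (30.3 to 167 CPM), VA (192 to 275 CPM) and granule neurons (50.2 to 213 CPM). A sum does not show which of the 5 genes carries the OL value, so it is no measure of interneuron RNA there. What share of the glial values comes from RNA of other cells was not tested.

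**Figure D3:**
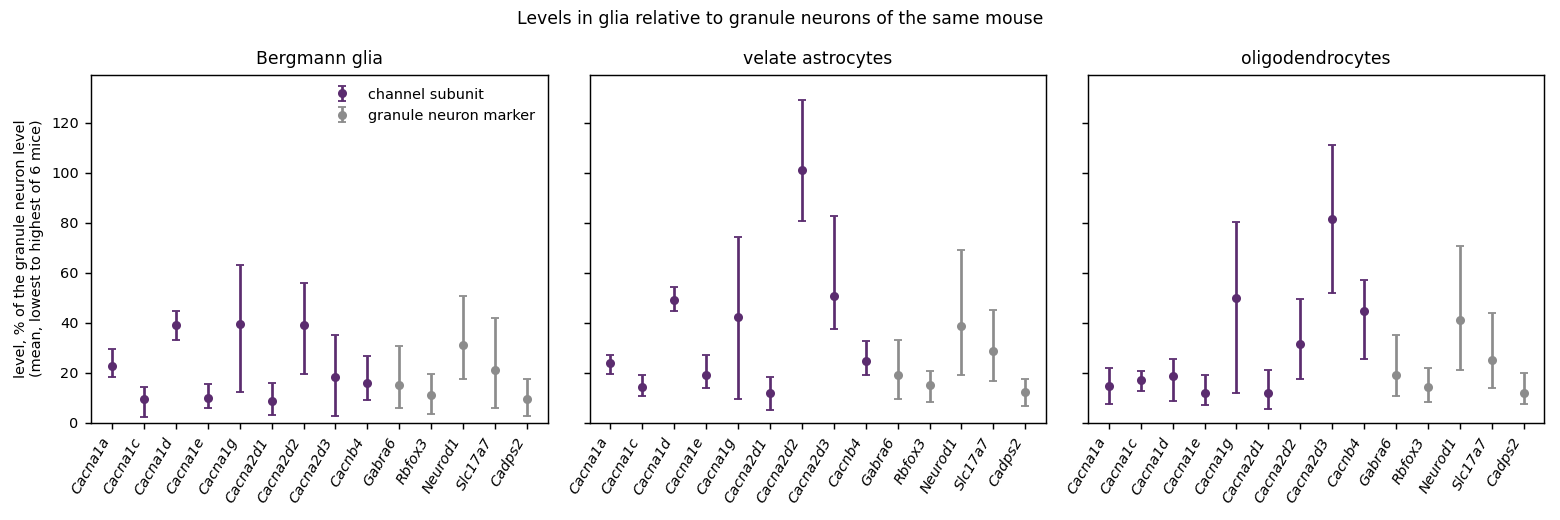
Level in glia as a percentage of the granule neuron level of the same mouse (y axis), for 9 subunit genes (purple) and 5 granule neuron markers (grey). Points are means of 6 mice and bars run from the lowest to the highest mouse. Cacna1d in Bergmann glia, Cacna2d2 in velate astrocytes and Cacna2d3 in oligodendrocytes lie above the mean of every marker.

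Labels with few nuclei were pooled over mice and not tested. Their intervals cover counting error only (exact Poisson, 95%). *Cacna1c*, the L-type gene of vascular smooth muscle, had 2133 CPM (1843 to 2455) in 20 nuclei labelled Mural Kcnj8 and 2782 CPM (2259 to 3391) in 5 labelled Mural Acta2, which is above its granule neuron mean of 983. *Cacna1a* had 22 CPM (2.66 to 79.4) in the same 20 nuclei. *Cacnb4* had 744 CPM (634 to 868) in 12 polydendrocyte nuclei and 651 CPM (601 to 705) in 83 choroid plexus nuclei.

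The next question was whether the subunit genes differed between SCA1 and WT mice. In PCs, which express the transgene, *Cacna2d2* had 496, 501 and 516 CPM in SCA1 mice 1 to 3 and 600, 743 and 731 CPM in WT mice 1 to 3. *Cacna1g* had 317, 289 and 376 CPM in SCA1 mice and 381, 522 and 525 CPM in WT mice. *Cacna1a* had 2832, 2967 and 3180 CPM in SCA1 mice and 3196, 3871 and 3534 CPM in WT mice. All SCA1 mice lay below all WT mice for these 3 genes, of 9 tested, as they did for 2.6% of all 10517 genes tested in PCs. For *Cacna1a* the gap between the groups was 16 CPM, and after TMM scaling only *Cacna2d2* kept its groups apart, with SCA1 mice at 439 to 534 and WT mice at 592 to 855 CPM.

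None of these genes passed the test in PCs. By edgeR with genotype and batch as terms, 0 of 9 had an adjusted p of 0.05 or less, as did 0% of all genes. At an unadjusted p under 0.05 there were 3 of 9 subunit genes, against 6.85% of all genes. This count is no test of the list, which was chosen with earlier results of these data known. These were *Cacna1g* at -0.70 ± 0.222 on the log2 scale (adjusted p = 0.449), *Cacna2d2* at -0.63 ± 0.207 (adjusted p = 0.468) and *Cacna1d* at -0.59 ± 0.224 (adjusted p = 0.59). *Cacna1a* was at -0.42 ± 0.267 (adjusted p = 0.932). DESeq2 called 0 of the 9 and 0.618% of all genes, and gave *Cacna2d2* an adjusted p of 0.0978. The test on single nuclei, which takes nuclei as replicates, called 0 of 10 subunit genes and 1.9% of all genes. It gave *Cacna1d* a log2 fold change of -0.08. *Cacna1a*, *Cacna2d2* and *Cacna1g* were at -0.38, -0.48 and -0.47 (adjusted p = 0.25, 0.184 and 0.119 by this test). The paper reports these genes as downregulated in PCs, from nuclei whose label and cluster agreed. Its calls came from limma-trend run on scran values of nuclei, the same kind of test as the one on nuclei here. By contrast, edgeR and DESeq2 were run here on sums per mouse, so that mice were the replicates. Here nuclei were taken by label alone, 292 in PCs, of which 273 had an agreeing cluster. The test on nuclei was not run on those 273 alone. Where a replicate block stood in for the batch term, *Cacna2d2* (-0.63, adjusted p = 0.0325) and *Cacna1g* (-0.71, adjusted p = 0.0378) passed, 2 of 9 subunit genes against 1.75% of all genes. The labels do not say that a number marks paired mice. Same-numbered mice deviated together (r over 0.1 in all 3 pairs) in 6 of the 13 labels, granule neurons among them, and in PCs in 2 of the 3 pairs.

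The log2 fold change in PCs was below 0 for 8 of the 9 genes, with a median of -0.42. Of all genes 47.5% were below 0, with a median of 0.02, and for the same reason this comparison is a description. Without WT mouse 3, *Cacna1c* (0.41), *Cacna1e* (0.14) and *Cacna2d1* (0.10) were above 0 and 5 of 9 genes were below. The shares of *Cacna1e* and *Cacna2d1*, both among the 8, are not read as expression in PCs. *Cacna2d3* was the exception at 0.53 ± 0.465, from 402 UMIs in all, with 8 in the mouse that had fewest. It was at -0.70 within batch 1 and 1.54 within the other libraries, and from 0.06 to 1.6 with each mouse left out in turn. *Cacna1c*, *Cacna1e*, *Cacna2d1* and *Cacnb4* were at -0.35, -0.83, -0.41 and -0.24, each with an SE of 0.25 or more. By limma-trend on sums the first 3 were at -0.07, -0.4 and -0.0. *Cacnb4* ranged from -0.37 to -0.09 with each mouse left out in turn, and was at -0.05 with library size alone. Scaling by library size alone moved the median of all genes by 0.18 and gave -0.44 for *Cacna2d2*, -0.52 for *Cacna1g* and -0.23 for *Cacna1a*. Within the pair of libraries with the lower library numbers, taken as batch 1, *Cacna2d2* differed by -0.43, *Cacna1g* by -0.42 and *Cacna1a* by -0.33. Within the other 4 libraries they differed by -0.73, -0.86 and -0.46. *Cacna1d* differed by -0.08 in batch 1 and by -0.86 in the other libraries. The summed level of the 6 Purkinje markers, none at 0, was 11365 to 14730 CPM in SCA1 and 15688 to 19333 CPM in WT PCs. That of the 5 granule markers was 53.8 to 234 and 53 to 386 CPM. The paper reports *Calb1*, *Itpr1* and *Rgs8*, all on the Purkinje list, as reduced in SCA1 mice. The Purkinje sum is thus no neutral measure of PC RNA between genotypes. The part of either marker list in the subunit values was not tested.

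**Figure D4:**
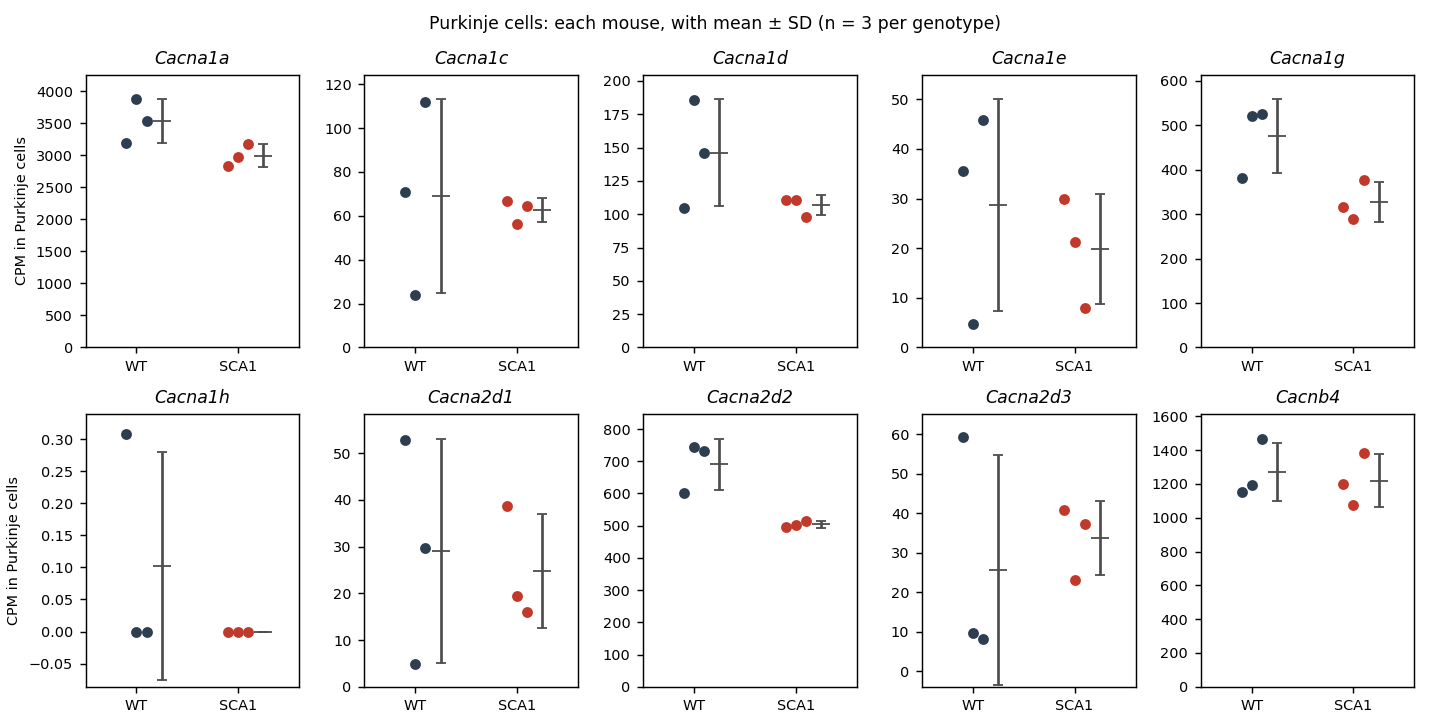
Level of each subunit gene in Purkinje cells (y axis, CPM) in each WT (dark) and SCA1 (red) mouse, with the mean and SD of 3 mice beside the points. Cacna1a, Cacna1g and Cacna2d2 have all SCA1 mice below all WT mice, while the other 7 genes overlap.

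Other genes of the family and their partners gave 0 calls in PCs as well. Of the further subunit genes 4 of 16 were tested, and *Cacnb2* (-0.39 ± 0.234, adjusted p = 0.897), *Cacna1b* (-0.38 ± 0.661, adjusted p = 0.999) and *Cacng2* (-0.04 ± 0.227, adjusted p = 0.999) had the largest changes. Of the 11 partner genes tested, 2 had an unadjusted p under 0.05, against 6.85% of all genes. These were *Stac*, which was among the genes most like *Cacna1g* over cell types, at -0.74 ± 0.239 (adjusted p = 0.459), and *Kcnn2*, named after its value was seen, at 0.51 ± 0.196 (adjusted p = 0.595). The other partners with the largest changes were *Cabp1* at 0.65 ± 0.482 (adjusted p = 0.972) and *Rims1* at -0.58 ± 0.466 (adjusted p = 0.981). The median was -0.21 over the further subunit genes and -0.14 over the partners, beside 0.02 over all genes.

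Outside PCs no subunit gene was called in any of the other 12 labels, where edgeR called 0.00547% of all genes in granule neurons, 0.00866% in OL and 0% in the rest. By DESeq2 the count was also 0 in each. Of all genes, DESeq2 called 15 of 18267 in granule neurons and 2 of 11752 in BG. It called 1 of 11544 in OL, 1 of 9127 in Lgi2 interneurons and 0 in the rest. *Cacna1g* was the gene most often at an unadjusted p under 0.05. It had 24.1, 15.4 and 13 CPM in granule neurons of SCA1 mice and 43.7, 22.9 and 19.5 CPM in those of WT mice. The log2 fold change there was -0.71 ± 0.14 (adjusted p = 1 by edgeR and 0.116 by DESeq2). In that label 1.82% of all genes and 1 of 10 subunit genes had such an unadjusted p. *Cacna1g* was at -1.04 ± 0.306 in Pvalb-Nefh interneurons (1 of 9 subunit genes, 1.01% of all genes). In Pvalb-Rab3b interneurons it was at -1.44 ± 0.397 (1 of 9 subunit genes, 1.74% of all genes). In the latter all SCA1 mice (8.95 to 16.5 CPM) lay below all WT mice (19.1 to 41.9 CPM), as for 2.78% of all genes. The 6 Purkinje markers summed to 343 to 1179 CPM in granule neurons of SCA1 mice and 626 to 2167 CPM in those of WT mice, and to 336 to 858 and 471 to 1847 CPM in Pvalb-Rab3b interneurons. Since the paper reports *Calb1*, *Itpr1* and *Rgs8* as reduced in SCA1 mice, this sum is no neutral measure of PC RNA between genotypes. The part of PC RNA in the *Cacna1g* values was not tested. Within batch 1 and within the other libraries *Cacna1g* differed by -0.86 and -0.63 in granule neurons, and by -1.28 and -1.45 in Pvalb-Rab3b interneurons.

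In Pvalb-Cadm1 interneurons 3 of 8 subunit genes had an unadjusted p under 0.05, against 2.37% of all genes, and all 3 had a far higher level in granule neurons. *Cacna2d1* was at 0.97 ± 0.386, *Cacna1c* at 0.93 ± 0.345 and *Cacna1e* at 0.75 ± 0.262, each with an adjusted p of 1. The genotypes overlapped for each, with *Cacna1c* at 45.9 to 196 CPM in SCA1 and 34.1 to 83.8 CPM in WT mice. The 5 granule markers summed to 259 to 908 CPM in SCA1 and 100 to 646 CPM in WT mice of this label, and their part was not tested. In Pvalb-Chrm2 interneurons *Cacna2d1* was at 0.63 ± 0.257 (1 of 9 genes, against 2.31% of all genes). The remaining labels had 0 subunit genes at such a p, where the share of all genes was 1.31% in Lgi2 interneurons, 2.15% in Slc17a6-Sln neurons, 1.18% in Slc17a6-Nrgn neurons and 2.2% in Dcn-Nnat nuclei. For glia this share was 1.81% (BG), 1.1% (VA) and 0.849% (OL).

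Some genes had groups that did not overlap without a small p. *Cacna1c* in Pvalb-Chrm2 interneurons had 540 to 599 CPM in SCA1 and 379 to 492 CPM in WT mice (0.41 ± 0.223), as 3.09% of all genes did in that direction. In Lgi2 interneurons it had 252 to 279 CPM in SCA1 and 294 to 358 CPM in WT mice (-0.26 ± 0.238), again with 3.09% of all genes in that direction, and after TMM scaling these mice overlapped. *Cacna1e* in Lgi2 interneurons was higher in all SCA1 mice (86.5 to 118 against 49.7 to 83.5 CPM, 0.53 ± 0.282), as were 2.59% of all genes, and *Cacna1h* was too, from 47 UMIs. *Cacnb4* in Slc17a6-Sln neurons had 441 to 477 CPM in SCA1 and 317 to 382 CPM in WT mice (0.38 ± 0.245), beside 3.51% of all genes.

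The genotype difference in PCs was also set against the one in granule neurons. The interaction test called 0 of 9 subunit genes and 0% of all genes, and 0 of 9 had an unadjusted p under 0.05, against 4.6% of all genes. *Cacna2d2* differed most in p, with a change lower by 0.60 in PCs than in granule neurons (-0.60 ± 0.278, adjusted p = 1). *Cacna1a* differed by -0.38 ± 0.217 and *Cacna1g* by -0.06 ± 0.448. Over the 13 labels *Cacna1a* ranged from -0.42 in PCs to 0.22, and *Cacna2d2* from -0.63 in PCs to 0.30. *Cacna1d* was at or below 0 in all 13 labels, which come from the same 6 mice. Within batch 1 it was above 0 in 11 of the 13, with 0.20 in granule neurons, and within the other libraries it was below 0 in all but OL (0.07), with -0.53 in granule neurons. With library size alone its sign in OL was the opposite.

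**Figure D5:**
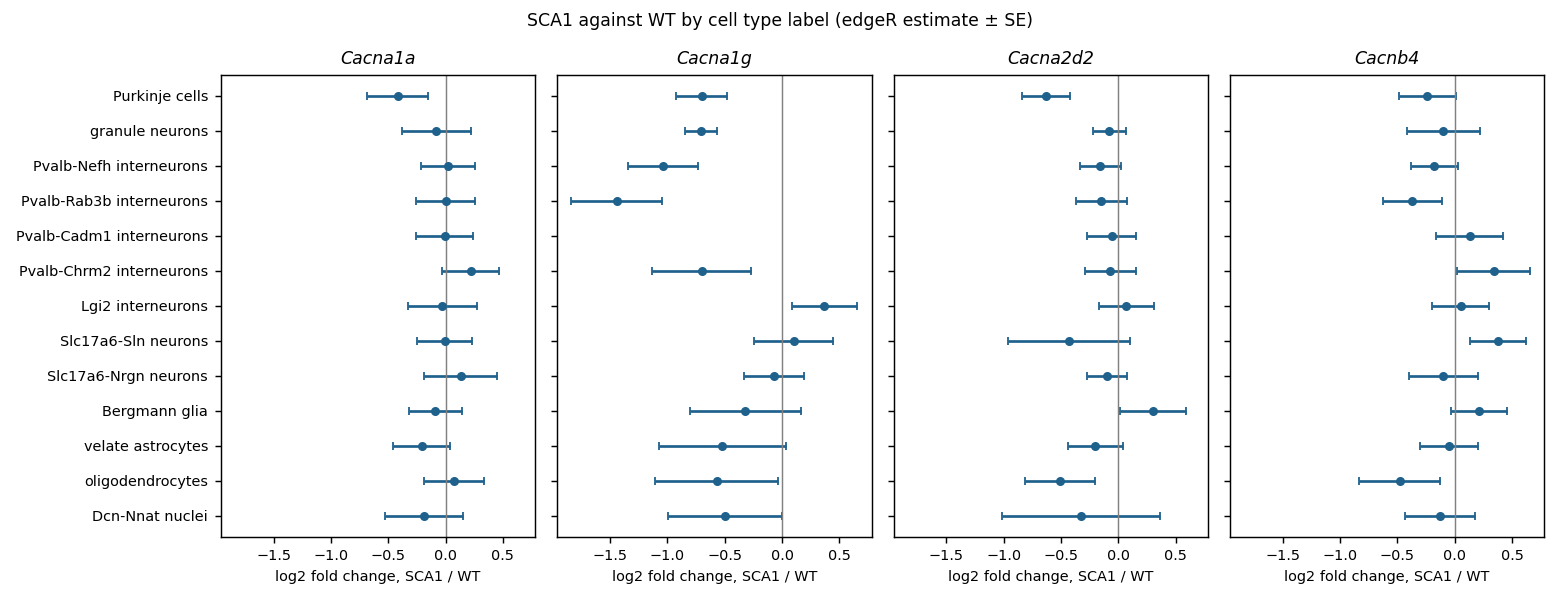
Log2 fold change of SCA1 against WT mice (x axis, edgeR estimate with SE, 3 mice per genotype) for 4 subunit genes in each cell type label (rows). No estimate passed (adjusted p of 0.05 or less), and Cacna1g, not tested in Pvalb-Cadm1 interneurons, lay below 0 in 10 of 12 labels.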

How the data were processed

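Nuclei of 6 cerebella were analysed. For each mouse the deposited table held UMI counts, whole numbers without normalization. Per the paper's methods, reads were aligned with CellRanger to mm10 with human *ATXN1* added and debris was removed with DIEM, with a higher UMI threshold for the first of 2 sequencing runs. The shallowest nucleus held 3890 and 3932 UMIs in the libraries taken as batch 1 and 1000 to 1739 in the others. The authors' SingleR label was used for each nucleus. No doublet caller was run. Pairs of mice shared 7 to 44 barcodes.

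Counts were summed per mouse and label and tested with edgeR 4.0.16 (quasi-likelihood, TMM, filterByExpr with minimum count 10 and minimum total 15), with genotype and batch as terms and Benjamini-Hochberg adjustment over all genes tested (called at 0.05). Batch was inferred from library numbers in the labels. Between cell types, mouse was a term. Fits were tested on simulated data. Levels are unscaled CPM and fold changes are TMM-scaled. Gene positions are from GENCODE M21. The subunit genes and the lists of 16 further subunits and 16 partners were chosen with earlier results of these data known. All subunit genes are named, while a list gene is named where it passed a test or had 1 of the 3 largest changes in PCs. The result of 1 partner gene is not reported here. Genes most alike were the top 3 by Pearson r of log2(CPM + 1) over WT means, among genes of at least 50 CPM in a label. Alternatives were DESeq2 1.42.0, limma-trend 3.58.1 (prior count 2), the same on scran 1.30.0 values of single nuclei, RLE, library size, no filter, deeper nuclei, agreement of label and cluster, no batch term, a replicate block and each mouse left out.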

Additional observations from a re-analysis of the deposited data

Results flagged for a closer look

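*Cacna1c* had fold changes of opposite sign in a pair of interneuron labels, neither of which passed (adjusted p = 1 for both by edgeR). In Pvalb-Chrm2 interneurons every SCA1 mouse was above every WT mouse (log2 fold change 0.41), and in Lgi2 interneurons every SCA1 mouse was below (-0.26), a gap of 0.67 on the log2 scale. The difference between the labels was not tested, and after TMM scaling the mice of the Lgi2 label overlapped.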

How the results depend on the processing

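For the number of subunit genes called between genotypes, 0 in each of the 13 labels, the replicate block was the sole setting run that changed it, to 2 in PCs (*Cacna2d2* and *Cacna1g*). Mice with the same number correlated in their deviations at 0.67, 0.06 and 0.49 in PCs. Each SCA1 mouse correlated best with the WT mouse of its own number, and the reverse was not looked at. The first pair also shares its inferred batch. Whether the numbers pair the mice is not settled by these values. The block called 184 genes in all against 0. All 3 pairs were over 0.1 in granule neurons (0.86, 0.25 and 0.76) and in Pvalb-Nefh, Pvalb-Rab3b, Pvalb-Cadm1, Lgi2 and VA nuclei, where the block called no subunit gene. Some PC log2 fold changes turned. Without WT replicate 3, *Cacna1c* was at 0.41, *Cacna1e* at 0.14 and *Cacna2d1* at 0.10, over leave-one-out ranges of -0.74 to 0.41, -1.22 to 0.14 and -0.80 to 0.10. In the test on nuclei, *Cacna1c* was at 0.30 and *Cacna1e* at 0.06, and *Cacna1d* was at -0.08 against -0.59 in edgeR. Leaving out each mouse gave -0.47 to -0.34 for *Cacna1a*, -0.84 to -0.52 for *Cacna1g*, -0.73 to -0.55 for *Cacna2d2* and 0.06 to 1.6 for *Cacna2d3*. With batch as a term, leaving out either mouse of batch 1 takes both out of the genotype difference. Both of these settings gave -0.46, -0.84, -0.73 and 1.6 for these genes in this order. The number of all genes called in PCs was 0 by edgeR, 65 by DESeq2 and 407 by the test on nuclei. Between BG and VA, 4 subunit genes were called, 5 by DESeq2, with no filter or without SCA1 replicate 1 or WT replicate 1, and 6 by library size. With label and cluster in agreement, 7 labels were left, and 7 of 10 genes kept their highest label. The others had theirs in a label that was left out. Leaving out a mouse kept the highest label of all 10. Low counts limit what can be read for *Cacna1h*, *Cacna1e*, *Cacna2d1* and *Cacna2d3* in PCs, which had 1, 283, 355 and 402 UMIs.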
